A study of Homo sapiens with 12 samples.

Results

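The 34 genes described here are established transcriptional targets of p53, and they were followed in 12 RNA-seq libraries of enzalutamide-resistant prostate cancer cells with or without knockdown of the atypical chemokine receptor CXCR7. They are all the listed p53 targets found by symbol among 26441 genes of the expression table, and 33 of them, all but EDA2R, reached at least 0.5 RPKM (reads per kilobase of gene, scaled to the reads of the library) in at least 3 of 12 libraries, as did 14204 genes in all. The LNCaP-EnzR cells were labelled LNCaP MDVr P23 and kept in 2 µM enzalutamide. The C4-2B-EnzR cells were labelled C4-2B MDVr P15 and kept in 10 µM enzalutamide. Enzalutamide is a hormone-blocking drug for prostate cancer. LNCaP is a cell line from a prostate cancer metastasis, and C4-2B is a castration-resistant line derived from it. Each line was infected with lentivirus carrying a hairpin against CXCR7 (shCXCR7) or the control vector pLKO (LKO), and RNA was taken 4 days after infection, with 3 libraries in each of the 4 groups. Every group shared the selection for resistance, the drug and the lentiviral vector, and the sources used here do not say which of the pair of hairpins named in the study's methods made these libraries nor whether the 3 libraries of a group were grown apart, so that the spread behind the p-values may be technical.

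The transcription factor p53 binds a response element made of a pair of half-sites and raises transcription of genes that halt the cell cycle, repair DNA, limit metabolism, trigger apoptosis or switch p53 itself off again. Without stress its level is kept low by the ubiquitin ligase MDM2, which is itself a target, so that the pathway forms a feedback loop. Many p53 targets also respond to other factors, among them ATF4.

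Reads could be counted back from the steps of the RPKM values, and 6382001 to 9834301 reads per library fell in genes. One library stood apart. In LNCaP-EnzR shCXCR7 replicate 3, 27.4% of the reads that set the RPKM scale fell in genes, against 67.0% to 75.5% in the other 11, and 1636 genes were listed at 0, against 8719 to 9652. Values were therefore rescaled by median-of-ratios factors within each line (2.001 for that library, 0.831 to 0.905 for the others of that line, and 0.977 to 1.059 in C4-2B-EnzR cells), and levels below are in rescaled RPKM. All 6 luminal prostate markers (HOXB13, KLK3, FOXA1, KRT8, KRT18 and EPCAM) were above 0.5 rescaled RPKM in every group mean. Their levels changed after knockdown. By limma KLK3 fell by 1.80 in LNCaP-EnzR (adjusted p = 1.12e-05) and 1.78 in C4-2B-EnzR cells (adjusted p = 1.4e-04) on the log2 scale. FOXA1 was lower and KRT18 higher in both lines. In C4-2B-EnzR cells alone, HOXB13 and EPCAM were lower and KRT8 was higher. The summed level of 6 fibroblast markers was 3.93 to 7.64 in LNCaP-EnzR shCXCR7 and 3.53 to 3.93 in LNCaP-EnzR LKO libraries, and 8.88 to 10.3 in C4-2B-EnzR shCXCR7 and 9.27 to 12.1 in C4-2B-EnzR LKO libraries, most of it COL1A1. Another of the 6, PDGFRB, was higher after knockdown in both lines, by 1.30 ± 0.41 (SE, adjusted p = 0.0364) in the LNCaP-EnzR line and 0.85 ± 0.18 (SE, adjusted p = 0.0105) in the C4-2B-EnzR line on the log2 scale by limma. It averaged 0.815 ± 0.475 rescaled RPKM in shCXCR7 and 0.159 ± 0.0611 in LKO libraries of LNCaP-EnzR cells, and 0.363 ± 0.0206 rescaled RPKM in shCXCR7 and 0.0925 ± 0.0496 in LKO libraries of C4-2B-EnzR cells (SD, n = 3 each). The summed level of 5 blood cell markers was at most 0.306, apart from a highest value of 5.13 in LNCaP-EnzR shCXCR7 libraries. The part of these markers in the results was not tested.

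The targeted gene, listed as ACKR3, was lower in both lines. It had 55.9, 50.6 and 41.6 rescaled RPKM in shCXCR7 libraries, against 123, 117 and 111 in LKO libraries of LNCaP-EnzR cells, and 22.3, 23.7 and 19.03 rescaled RPKM in shCXCR7 libraries, against 84.1, 86.8 and 85.9 in LKO libraries of C4-2B-EnzR cells. Neither pair of groups overlapped, and the mean was 42.2% and 25.3% of the LKO mean. The log2 fold change was -1.25 ± 0.11 (SE, adjusted p = 8.38e-05) in the LNCaP-EnzR line and -1.97 ± 0.09 (SE, adjusted p = 1.07e-04) in the C4-2B-EnzR line by limma (exact two-sided permutation p = 0.1 in each, the smallest that 3 against 3 libraries can give). On the values as deposited the LNCaP-EnzR change was -1.58 and did not pass (adjusted p = 0.115). In bulk RNA, fewer cells expressing a gene and less RNA per cell cannot be told apart.

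To see which targets carry a near-perfect p53 response element close to their start, the element was searched within 3000 bases of each gene start in hg38 (GENCODE 44). It consists of 20 bases, 2 half-sites with 0 bases between them, each half-site being 3 purines, a C, a pair of A or T, a G and 3 pyrimidines, and 1 mismatch was allowed outside the core C and G. The consensus is its own reverse complement, so both strands are read at once. Of the 33 members that passed the filter, 6 (18.2%) had a match, namely ZMAT3, DDB2, CCNG1, RRM2B, PLK2 and GADD45A, against 78 of 11632 tested genes with a GENCODE start (0.671%), which include the members. With 0 mismatches, 2 members (ZMAT3 and PLK2) and 7 genes matched (0.0602%). The members are listed because they are known p53 targets, so these shares describe the list and test nothing. Sequences of matches are shown because p53 binds an element of this kind, with the 4-base core of each half-site in capitals. The matches lie in introns of ZMAT3 (chr3:179070188-179070207, minus strand), GADD45A (chr1:67686775-67686794, plus strand) and CCNG1 (chr5:163437926-163437945, plus strand), at an exon edge of DDB2 (chr11:47214969-47214988, plus strand), upstream of PLK2 (chr5:58462274-58462293, minus strand) and, for EDA2R, which did not pass the filter, in an intron (chrX:66638713-66638732, minus strand). The match of RRM2B also lies in an intron, and its sequence is not shown.
ZMAT3: aaaCAAGtccagaCATGcct
PLK2: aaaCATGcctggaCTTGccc
GADD45A: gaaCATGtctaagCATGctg
CCNG1: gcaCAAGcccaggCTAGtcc
DDB2: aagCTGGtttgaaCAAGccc
EDA2R: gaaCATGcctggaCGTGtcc
A match is a description of letters and not a bound site, and no match says only that these letters are not in the window.

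**Figure D1:**
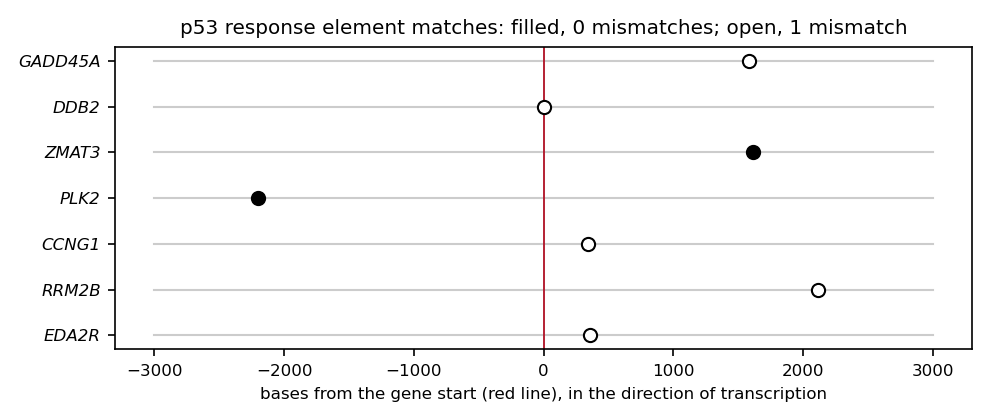
Position of each p53 response element match, as the distance in bases of its centre from the gene start (red line, x axis) for 7 listed p53 targets (y axis), RRM2B and EDA2R included. Filled points have 0 mismatches (ZMAT3, 1611 bases inside the gene, and PLK2, 2198 bases upstream), open points 1 mismatch, and the match of DDB2 lies 4 bases from its start.

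Calls among the 6 matched members went both ways after CXCR7 knockdown. ZMAT3 and RRM2B were lower in both lines and GADD45A was lower in LNCaP-EnzR cells, CCNG1 was higher in C4-2B-EnzR cells, and DDB2 and PLK2 passed in neither line. Of all genes 19.1% were lower and 16.8% higher in LNCaP-EnzR cells, and 19.5% and 19.4% in C4-2B-EnzR cells. Among these calls only that of ZMAT3 in C4-2B-EnzR cells held in every alternative way of processing. So few genes cannot show whether matched members respond alike. TP53INP1, GDF15 and SESN1, which had the largest falls of the members in LNCaP-EnzR cells, had no match.

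More p53 targets were lower than higher after CXCR7 knockdown, in both lines. In LNCaP-EnzR cells 14 of 33 members (42.4%) were lower at an adjusted p under 0.05 by limma, where 19.1% of all 14204 genes were, and 3 (9.09%) were higher, where 16.8% of all genes were. In C4-2B-EnzR cells 12 (36.4%) were lower, against 19.5% of all genes, and 6 (18.2%) were higher, against 19.4%. The same 12 members were lower in both lines: TP53INP1, CDKN1A, GDF15, PHLDA3, PPM1D, ZMAT3, SESN1, AEN, TNFRSF10B, RRM2B, PLK3 and ACER2. That is 36.4% of the members, where 10.7% of all genes were lower in both. Only BTG2 was higher in both (3.03%, against 9.6% of all genes), and no member passed in opposite directions (0.683% of all genes did).

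By size, 5 members were at least 2-fold lower in LNCaP-EnzR cells (15.2%, against 2.3% of all genes) and 4 in C4-2B-EnzR cells (12.1%, against 3.6%), while 1 member (KITLG) was at least 2-fold higher in LNCaP-EnzR cells, where 3.25% of all genes were, and 0 in C4-2B-EnzR cells, where 2.49% were. The median log2 fold change was -0.19 over the members and 0.03 over all genes in LNCaP-EnzR cells, and -0.08 over the members and 0.00 over all genes in C4-2B-EnzR cells. Counting libraries alone, every shCXCR7 library lay below every LKO library for 16 members in LNCaP-EnzR cells (48.5%, against 24.5% of all genes) and for 13 in C4-2B-EnzR cells (39.4%, against 26.0%). Every shCXCR7 library lay above for 4 members (12.1%, against 24.7%) and 10 members (30.3%, against 26.6%). Across the 33 members the fold changes of the 2 lines, which share no library, had a Pearson r of 0.86 and a Spearman rho of 0.9, and without TP53INP1 0.81 and 0.89, beside 0.55 and 0.56 over all 14204 genes. Genes are not independent replicates, and the lines share their origin, the hairpin label and the processing. The members were chosen with earlier results of these data known, so these shares describe the list and do not test it.

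**Figure D2:**
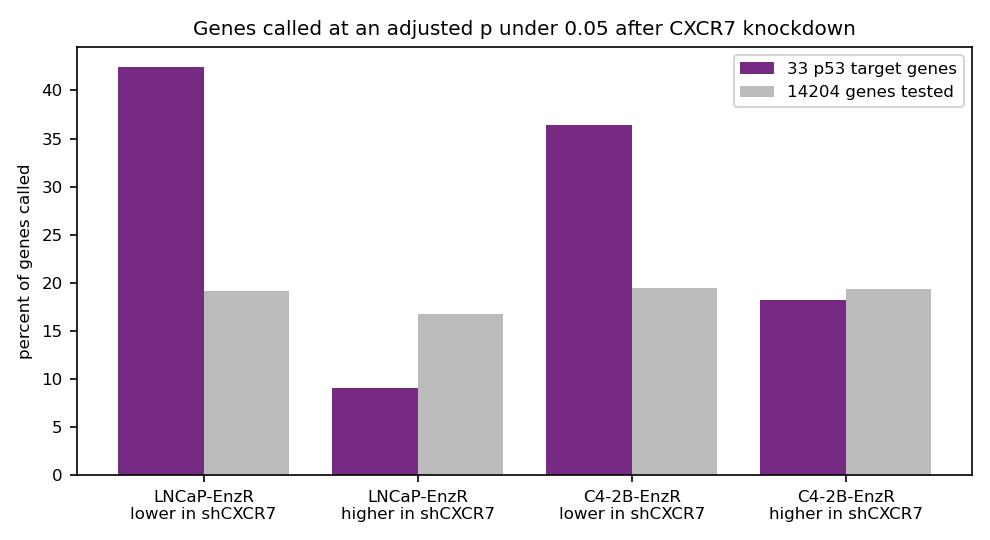
Percent of genes (y axis) called lower or higher in shCXCR7 than in LKO libraries at an adjusted p under 0.05, for the 33 p53 target genes (purple) and all 14204 genes tested (grey), per line. The share lower is 42.4% of the targets against 19.1% of all genes in LNCaP-EnzR cells and 36.4% against 19.5% in C4-2B-EnzR cells.

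These counts rest on the rescaling in LNCaP-EnzR cells. On the values as deposited, where the median log2 fold change of all genes was -0.28, 4 members were lower there (TP53INP1, GDF15, SESN1 and ACER2) and 0 higher, of 364 genes lower and 275 higher in all. Without shCXCR7 replicate 3, which stands apart, 14 members were lower and 4 higher in that line, of 2953 genes lower and 2874 higher in all.

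**Figure D3:**
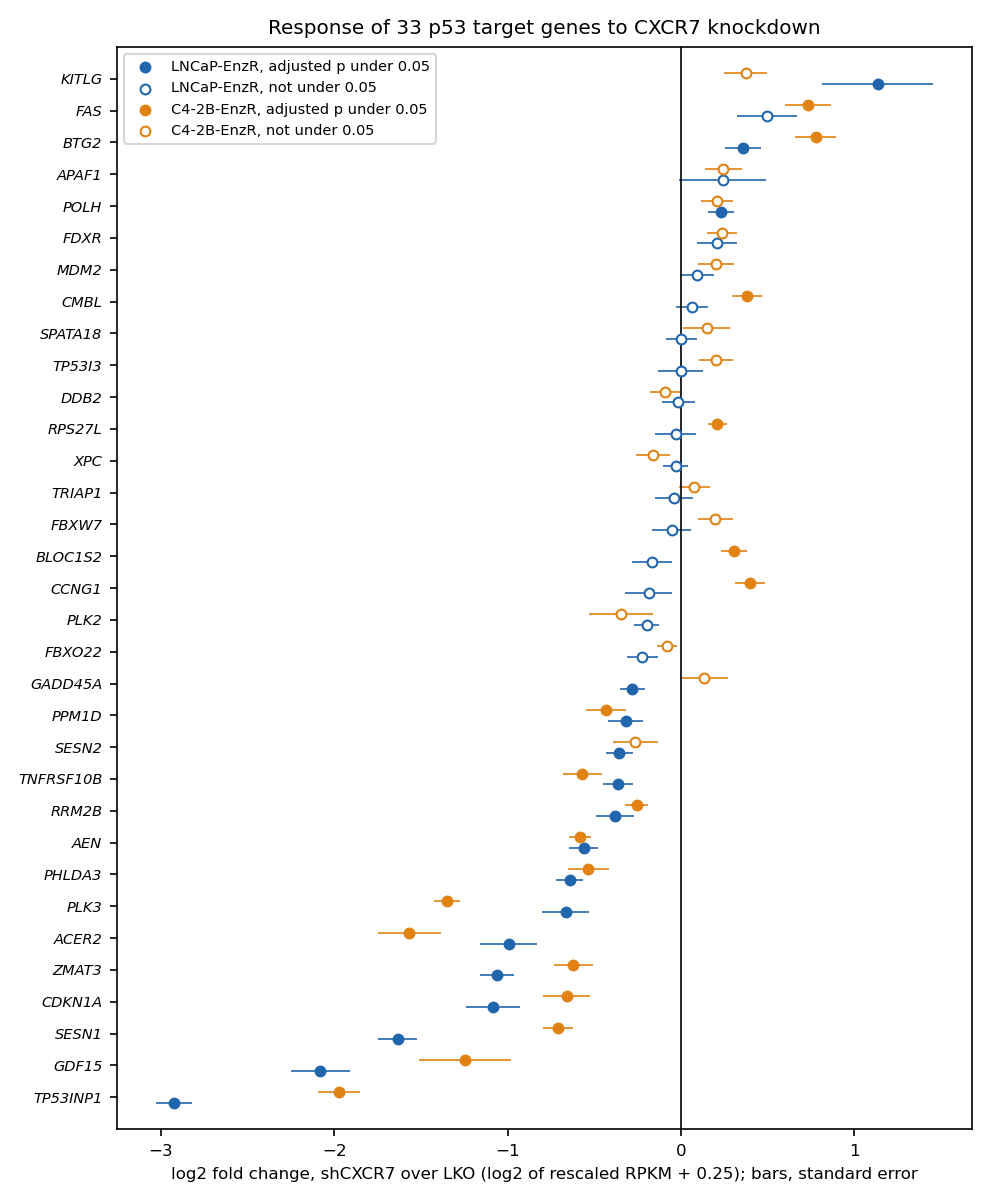
Log2 fold change of shCXCR7 over LKO (x axis, on log2 of rescaled RPKM + 0.25) with its standard error for each of the 33 p53 target genes (y axis), in LNCaP-EnzR (blue) and C4-2B-EnzR cells (orange). Filled points have an adjusted p under 0.05, and the 12 genes filled in both lines below 0 run from TP53INP1 at the bottom to PPM1D.

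As a group the members were carried by a few abundant transcripts. The summed level of all 34 was 776.8 to 965.2 rescaled RPKM (median 959.6) in LNCaP-EnzR shCXCR7 libraries, against 1397 to 1686 (median 1608) in LKO libraries, and 740.2 to 817.2 (median 774.4) in C4-2B-EnzR shCXCR7 libraries, against 820.8 to 1010.0 (median 936.3) in LKO libraries. The groups did not overlap in either line. GDF15 and CDKN1A together made up 26.9% of the sum in LNCaP-EnzR shCXCR7 and 47.5% in LKO libraries, and 16.5% in C4-2B-EnzR shCXCR7 and 26.7% in LKO libraries. Without these 2 genes the sum was 658.3 ± 73.7 in LNCaP-EnzR shCXCR7 and 820.2 ± 24.0 in LKO libraries, and 648.7 ± 23.9 in C4-2B-EnzR shCXCR7 and 676.1 ± 32.6 in LKO libraries (SD, n = 3 each). At the other end, EDA2R, a receptor of the tumour necrosis factor family, had 0 to 19 reads per library. In the 3 libraries without a read, a floor of 3 reads allows up to 0.0677 to 0.0750 RPKM, counting error only.

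Regulators that feed back on p53 did not all respond alike. Of 6, TP53INP1, ZMAT3 and PPM1D were lower in both lines, RPS27L was higher in C4-2B-EnzR cells, and MDM2 and FBXO22 passed in neither. Of all genes 10.7% were lower in both lines and 19.4% were higher in C4-2B-EnzR cells. With so few genes these counts only describe the group. TP53INP1, a stress-induced protein that promotes p53 phosphorylation and autophagy, had the largest fall of all members. It had 15.97, 12.8 and 12.4 rescaled RPKM in shCXCR7 libraries, against 112, 103 and 101 in LKO libraries of LNCaP-EnzR cells. In C4-2B-EnzR cells it had 12.5, 13.2 and 15.4 rescaled RPKM in shCXCR7 libraries, against 58.9, 58.8 and 46.4 in LKO libraries. Knockdown libraries of each line thus sat far below every LKO library of that line. Its log2 fold change was -2.93 ± 0.10 (SE, adjusted p = 4.02e-06) in the LNCaP-EnzR line and -1.98 ± 0.12 (SE, adjusted p = 1.63e-04) in the C4-2B-EnzR line by limma. Exonic sequence of TP53INP1 overlaps that of NDUFAF6 on the other strand. The sources do not say whether counting used strand. By limma the log2 fold change of NDUFAF6 was -0.80 (adjusted p = 6.62e-04) in LNCaP-EnzR and -0.21 (adjusted p = 0.266) in C4-2B-EnzR cells. Its difference between the lines was 0.59 (adjusted p = 0.0475 by limma). The part of NDUFAF6 reads in the TP53INP1 values was not tested.

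ZMAT3, an RNA-binding zinc finger protein that tunes splicing downstream of p53, had 4.97, 4.98 and 4.21 rescaled RPKM in shCXCR7 libraries, against 10.98, 10.3 and 9.15 in LKO libraries of LNCaP-EnzR cells. It had 4.95, 5.34 and 6.305 rescaled RPKM in shCXCR7 libraries, against 8.55, 9.33 and 7.98 in LKO libraries of C4-2B-EnzR cells. No shCXCR7 library reached an LKO library, and the log2 fold change was -1.06 ± 0.10 (SE, adjusted p = 9.39e-05) in the LNCaP-EnzR line and -0.62 ± 0.11 (SE, adjusted p = 0.00603) in the C4-2B-EnzR line by limma. PPM1D, the phosphatase WIP1 that switches off p53 and its upstream kinases, had 3.77, 4.09 and 4.098 rescaled RPKM in shCXCR7 libraries, against 5.11, 5.59 and 4.46 in LKO libraries of LNCaP-EnzR cells. The C4-2B-EnzR cells had 3.82, 3.87 and 5.01 rescaled RPKM in shCXCR7 libraries, against 5.65, 5.67 and 5.97 in LKO libraries. The falls were small and the groups did not overlap. By limma the log2 fold change was -0.32 ± 0.10 (SE, adjusted p = 0.038) in the LNCaP-EnzR line and -0.43 ± 0.12 (SE, adjusted p = 0.0278) in the C4-2B-EnzR line. In LNCaP-EnzR cells PPM1D did not pass with factors from genes of at least 5 RPKM (-0.28), with no filter on low values (-0.32), without LKO replicate 1 (-0.31), without LKO replicate 2 (-0.25), without shCXCR7 replicate 1 (-0.28), without shCXCR7 replicate 2 (-0.34) or without shCXCR7 replicate 3 (-0.34). In C4-2B-EnzR cells it did not pass without LKO replicate 1 (-0.45), without LKO replicate 2 (-0.45), without LKO replicate 3 (-0.41), without shCXCR7 replicate 1 (-0.37) or without shCXCR7 replicate 2 (-0.38).

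MDM2, the ubiquitin ligase that marks p53 for degradation and a commonly used readout of p53 activity, passed in neither line. It had 26.5, 23.8 and 20.6 rescaled RPKM in shCXCR7 libraries, against 23.2, 22.1 and 20.8 in LKO libraries of LNCaP-EnzR cells, and these groups overlapped. It had 27.03, 27.5 and 31.5 rescaled RPKM in shCXCR7 libraries, against 26.7, 26.5 and 21.6 in LKO libraries of C4-2B-EnzR cells, where every shCXCR7 library was slightly above every LKO library. On the log2 scale the change was 0.09 ± 0.10 (SE, adjusted p = 0.509) in the LNCaP-EnzR line and 0.20 ± 0.11 (SE, adjusted p = 0.173) in the C4-2B-EnzR line by limma. RPS27L, a ribosomal protein paralog that protects p53 from MDM2, averaged 105 ± 15.9 rescaled RPKM in shCXCR7 and 106 ± 2.53 in LKO libraries of LNCaP-EnzR cells, and 131 ± 5.25 rescaled RPKM in shCXCR7 and 114 ± 2.13 in LKO libraries of C4-2B-EnzR cells (SD, n = 3 each). It rose in C4-2B-EnzR cells by 0.21 ± 0.06 (SE, adjusted p = 0.0253) on the log2 scale by limma, and did not pass with quantile normalization (0.15), in a single fit of all 12 libraries (0.21), without LKO replicate 2 (0.22), without shCXCR7 replicate 1 (0.18), without shCXCR7 replicate 2 (0.24) or without shCXCR7 replicate 3 (0.21). RPS27L shares sequence with RPS27, so its reads are uncertain. FBXO22, a ubiquitin ligase subunit, had a log2 fold change of -0.22 in the LNCaP-EnzR line and -0.08 in the C4-2B-EnzR line.

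**Figure D4:**
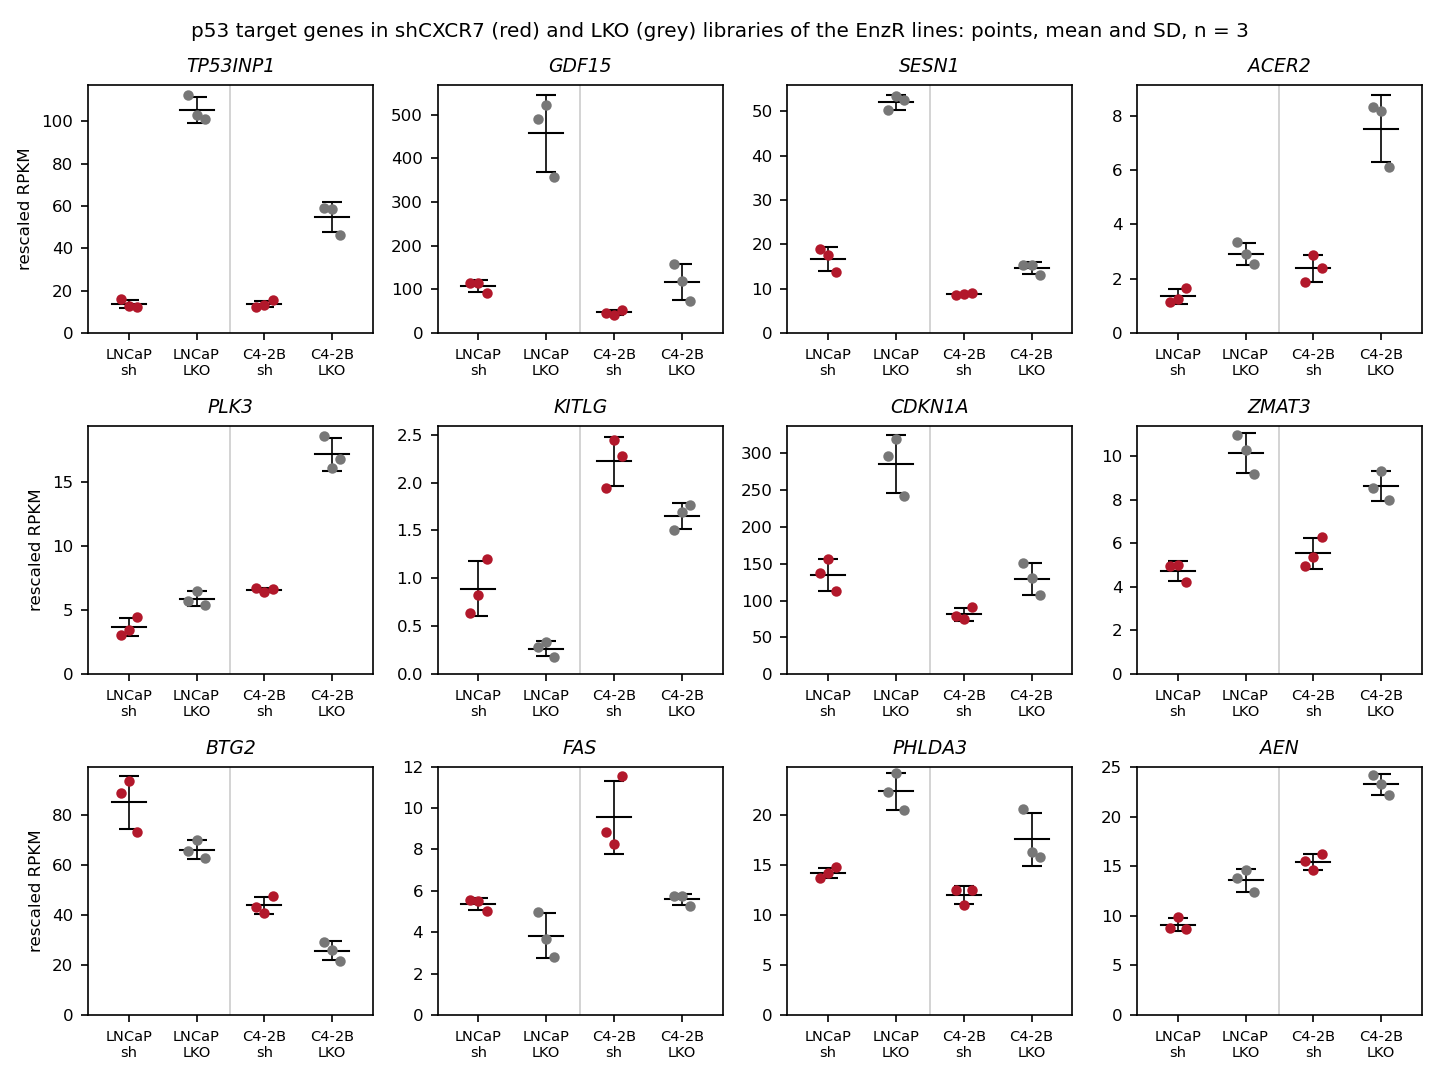
Rescaled RPKM (y axis, from 0) of the 12 p53 target genes with the largest fold changes, in shCXCR7 (red) and LKO (grey) libraries of LNCaP-EnzR and C4-2B-EnzR cells; points are libraries, lines the mean and SD of 3. TP53INP1 in knockdown libraries lies between 12.4 and 15.97 in both lines, while KITLG, BTG2 and FAS are the 3 genes with higher means in shCXCR7 libraries.

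Checkpoint genes were led by CDKN1A, which encodes the cyclin-dependent kinase inhibitor p21 and is the classic p53 target (chr6:36678714-36687332, plus strand). It had 137, 156 and 113 rescaled RPKM in shCXCR7 libraries, against 296, 319 and 243 in LKO libraries of LNCaP-EnzR cells. In C4-2B-EnzR cells it had 78.9, 74.4 and 91.1 rescaled RPKM in shCXCR7 libraries, against 151, 131 and 107 in LKO libraries. Knockdown thus left 47.2% of the LKO mean in the LNCaP-EnzR line and 62.8% in the C4-2B-EnzR line, with no overlap between groups. This gave a log2 fold change of -1.08 ± 0.15 (SE, adjusted p = 8.91e-04) in the LNCaP-EnzR line and -0.66 ± 0.14 (SE, adjusted p = 0.0106) in the C4-2B-EnzR line by limma.

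PLK3, a stress-responsive polo-like kinase, had 3.05, 3.46 and 4.42 rescaled RPKM in shCXCR7 libraries, against 5.68, 6.53 and 5.44 in LKO libraries of LNCaP-EnzR cells. It had 6.71, 6.39 and 6.68 rescaled RPKM in shCXCR7 libraries, against 18.7, 16.1 and 16.8 in LKO libraries of C4-2B-EnzR cells. The knockdown libraries of C4-2B-EnzR cells lay close together and well below their controls. Limma put the log2 fold change at -0.67 ± 0.14 (SE, adjusted p = 0.00562) in the LNCaP-EnzR line and -1.35 ± 0.07 (SE, adjusted p = 1.44e-04) in the C4-2B-EnzR line.

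BTG2, an antiproliferative cofactor of mRNA deadenylation, moved the other way. It had 88.8, 93.6 and 73.3 rescaled RPKM in shCXCR7 libraries, against 65.6, 70.3 and 62.7 in LKO libraries of LNCaP-EnzR cells. It had 43.4, 40.9 and 47.7 rescaled RPKM in shCXCR7 libraries, against 29.3, 26.1 and 21.7 in LKO libraries of C4-2B-EnzR cells. Every knockdown library was above every control. The log2 fold change was 0.36 ± 0.11 (SE, adjusted p = 0.029) in the LNCaP-EnzR line and 0.78 ± 0.12 (SE, adjusted p = 0.00342) in the C4-2B-EnzR line by limma, and the LNCaP-EnzR rise did not pass with no filter on low values (0.36), without LKO replicate 1 (0.35), without LKO replicate 2 (0.40), without LKO replicate 3 (0.32), without shCXCR7 replicate 1 (0.32) or without shCXCR7 replicate 2 (0.28).

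Of the other 3 checkpoint genes, CCNG1 and GADD45A passed in a single line and PLK2 in neither. CCNG1, a cyclin that recruits a phosphatase to MDM2, averaged 69.7 ± 2.99 rescaled RPKM in shCXCR7 and 53.02 ± 5.496 in LKO libraries of C4-2B-EnzR cells, and 119 ± 21.2 rescaled RPKM in shCXCR7 and 134 ± 5.66 in LKO libraries of LNCaP-EnzR cells (SD, n = 3 each). It rose in C4-2B-EnzR cells by 0.40 ± 0.09 (SE, adjusted p = 0.0123) on the log2 scale by limma, and did not pass without shCXCR7 replicate 1 (0.37). GADD45A, which slows the cell cycle and assists DNA repair, averaged 17.7 ± 0.656 rescaled RPKM in shCXCR7 and 21.5 ± 1.27 in LKO libraries of LNCaP-EnzR cells, and 14.7 ± 2.15 rescaled RPKM in shCXCR7 and 13.3 ± 1.67 in LKO libraries of C4-2B-EnzR cells (SD, n = 3 each). Its log2 fold change was -0.28 ± 0.07 (SE, adjusted p = 0.0149) in LNCaP-EnzR cells by limma, which did not pass in a single fit of all 12 libraries (-0.28), without LKO replicate 1 (-0.25) or without LKO replicate 2 (-0.26), while its change was 0.13 in the C4-2B-EnzR line (adjusted p = 0.462) and the difference between the lines did not pass (0.42, adjusted p = 0.104). PLK2, a polo-like kinase of the centrosome cycle, had a log2 fold change of -0.20 in the LNCaP-EnzR line and -0.35 in the C4-2B-EnzR line, both short of the threshold.

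Of the 2 secreted ligands, GDF15 was lower in both lines and KITLG was called higher in LNCaP-EnzR cells. GDF15, a stress cytokine of the TGF-beta family that p53 and ATF4 both induce (chr19:18386158-18389176, plus strand), was the most abundant member in LNCaP-EnzR LKO cells. It had 115, 116 and 90.6 rescaled RPKM in shCXCR7 libraries, against 491, 522 and 358 in LKO libraries of LNCaP-EnzR cells. It had 46.8, 41.03 and 53.5 rescaled RPKM in shCXCR7 libraries, against 157, 119 and 73.8 in LKO libraries of C4-2B-EnzR cells. The C4-2B-EnzR control libraries spread widely, falling from replicate 1 to 3 as for CDKN1A, and still lay above every knockdown library. Those of CCNG1 rose in that order. By limma the log2 fold change was -2.08 ± 0.17 (SE, adjusted p = 5.05e-05) in the LNCaP-EnzR line and -1.25 ± 0.27 (SE, adjusted p = 0.0117) in the C4-2B-EnzR line. Of 15 other ATF4 targets, 3 were lower and 3 higher in LNCaP-EnzR cells (median log2 fold change 0.14), and 4 were lower and 1 higher in C4-2B-EnzR cells (median 0.01), beside 19.1% lower and 16.8% higher of all genes in LNCaP-EnzR cells and 19.5% and 19.4% in C4-2B-EnzR cells.

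KITLG, the ligand of the KIT receptor, was rare in LNCaP-EnzR cells. It had 0.641, 0.8295 and 1.21 rescaled RPKM in shCXCR7 libraries, against 0.279, 0.331 and 0.1801 in LKO libraries of that line, from 12 to 29 reads in each LKO library. The C4-2B-EnzR cells had 1.94, 2.45 and 2.28 rescaled RPKM in shCXCR7 libraries, against 1.502, 1.69 and 1.76 in LKO libraries. The groups did not overlap in either line, and the highest LNCaP-EnzR value was in the library that stands apart. On the log2 scale the change was 1.13 ± 0.32 (SE, adjusted p = 0.0235) in the LNCaP-EnzR line and 0.37 ± 0.12 (SE, adjusted p = 0.0531) in the C4-2B-EnzR line by limma. The LNCaP-EnzR rise did not pass with no filter on low values (1.13), without LKO replicate 1 (1.15), without LKO replicate 2 (1.22), without LKO replicate 3 (1.00) or without shCXCR7 replicate 2 (1.14).

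Genes of stress sensing and metabolism held the sestrins, which restrain the growth kinase mTORC1. SESN1 (chr6:108984309-109094846, minus strand) had 18.9, 17.6 and 13.8 rescaled RPKM in shCXCR7 libraries, against 50.2, 53.6 and 52.5 in LKO libraries of LNCaP-EnzR cells. It had 8.51, 8.86 and 9.07 rescaled RPKM in shCXCR7 libraries, against 15.4, 15.4 and 12.99 in LKO libraries of C4-2B-EnzR cells. Both falls were clear of the spread, and replicates of C4-2B-EnzR knockdown cells were nearly equal. This gave a log2 fold change of -1.64 ± 0.11 (SE, adjusted p = 2.15e-05) in the LNCaP-EnzR line and -0.71 ± 0.09 (SE, adjusted p = 0.00146) in the C4-2B-EnzR line by limma. SESN2, which also responds to ATF4, averaged 8.59 ± 0.358 rescaled RPKM in shCXCR7 and 11.1 ± 0.885 in LKO libraries of LNCaP-EnzR cells (SD, n = 3 each) and fell by 0.36 on the log2 scale (adjusted p = 0.00854 by limma). Its change in C4-2B-EnzR cells was -0.26 (adjusted p = 0.152).

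ACER2, a Golgi ceramidase that makes sphingosine, had 1.15, 1.24 and 1.65 rescaled RPKM in shCXCR7 libraries, against 3.33, 2.896 and 2.52 in LKO libraries of LNCaP-EnzR cells. It had 1.88, 2.86 and 2.41 rescaled RPKM in shCXCR7 libraries, against 8.31, 8.16 and 6.097 in LKO libraries of C4-2B-EnzR cells. The groups were apart in both lines, with the larger fall in C4-2B-EnzR cells, although the difference between the lines did not pass (adjusted p = 0.155 by limma). Limma put the log2 fold change at -0.99 ± 0.16 (SE, adjusted p = 0.00188) in the LNCaP-EnzR line and -1.57 ± 0.18 (SE, adjusted p = 0.00126) in the C4-2B-EnzR line.

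In the same group CMBL, a hydrolase, and BLOC1S2, a subunit of lysosome-positioning complexes, were called higher in C4-2B-EnzR cells. CMBL averaged 28.2 ± 0.718 rescaled RPKM in shCXCR7 and 21.7 ± 2.42 in LKO libraries of that line and BLOC1S2 10.1 ± 0.745 rescaled RPKM in shCXCR7 and 8.11 ± 0.256 in LKO libraries (SD, n = 3 each). The log2 fold change was 0.38 ± 0.09 (SE, adjusted p = 0.0159) for CMBL and 0.31 ± 0.08 (SE, adjusted p = 0.0199) for BLOC1S2 by limma. CMBL did not pass without shCXCR7 replicate 1 (0.39) or without shCXCR7 replicate 3 (0.36), and BLOC1S2 did not pass without LKO replicate 2 (0.31), without shCXCR7 replicate 1 (0.25) or without shCXCR7 replicate 3 (0.31). In LNCaP-EnzR cells their changes were 0.07 and -0.17, and the difference between the lines did not pass for either (adjusted p = 0.152 and 0.057). FDXR (mitochondrial electron transfer), TP53I3 (a quinone reductase), TRIAP1 (mitochondrial lipid transfer) and SPATA18 (mitochondrial quality control) passed in neither line, with log2 fold changes of -0.04 to 0.21 in LNCaP-EnzR and 0.08 to 0.24 in C4-2B-EnzR cells.

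Genes of DNA repair and nucleotide supply did not all respond alike either. Of 5, AEN and RRM2B were lower in both lines, where 10.7% of all genes were. POLH was called higher in LNCaP-EnzR cells, where 16.8% of all genes were. AEN, an exonuclease that takes part in apoptosis, had 8.79, 9.85 and 8.73 rescaled RPKM in shCXCR7 libraries, against 13.8, 14.7 and 12.4 in LKO libraries of LNCaP-EnzR cells. It had 15.5, 14.7 and 16.2 rescaled RPKM in shCXCR7 libraries, against 24.3, 23.3 and 22.2 in LKO libraries of C4-2B-EnzR cells. Groups were apart in both lines and the falls were of like size, with a log2 fold change of -0.56 ± 0.09 (SE, adjusted p = 0.00129) in the LNCaP-EnzR line and -0.58 ± 0.06 (SE, adjusted p = 0.00112) in the C4-2B-EnzR line by limma. RRM2B, the p53-inducible subunit of ribonucleotide reductase, averaged 19.5 ± 2.87 rescaled RPKM in shCXCR7 and 25.3 ± 1.65 in LKO libraries of LNCaP-EnzR cells, and 15.2 ± 0.457 rescaled RPKM in shCXCR7 and 18.2 ± 1.15 in LKO libraries of C4-2B-EnzR cells (SD, n = 3 each). Its log2 fold change was -0.38 ± 0.11 (SE, adjusted p = 0.0263) in the LNCaP-EnzR line and -0.26 ± 0.07 (SE, adjusted p = 0.0239) in the C4-2B-EnzR line by limma. In LNCaP-EnzR cells RRM2B did not pass without LKO replicate 1 (-0.34), without LKO replicate 2 (-0.38) or without shCXCR7 replicate 2 (-0.42). In C4-2B-EnzR cells it did not pass in a single fit of all 12 libraries (-0.26), without LKO replicate 2 (-0.22), without LKO replicate 3 (-0.24), without shCXCR7 replicate 1 (-0.23) or without shCXCR7 replicate 2 (-0.26), nor on the values as deposited.

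POLH, the translesion polymerase eta, averaged 8.71 ± 0.529 rescaled RPKM in shCXCR7 and 7.38 ± 0.267 in LKO libraries of LNCaP-EnzR cells (SD, n = 3 each). It was higher by 0.23 ± 0.08 (SE, adjusted p = 0.0423) on the log2 scale by limma, but not with no filter on low values (0.23), without LKO replicate 1 (0.26), without LKO replicate 2 (0.21), without LKO replicate 3 (0.22), without shCXCR7 replicate 1 (0.23) or without shCXCR7 replicate 2 (0.19), and its sign turned on the values as deposited (-0.09). In C4-2B-EnzR cells its change was 0.21 (adjusted p = 0.115). The nucleotide excision repair factors XPC and DDB2 passed in neither line. Their log2 fold changes were -0.03 and -0.02 in LNCaP-EnzR and -0.16 and -0.09 in C4-2B-EnzR cells.

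Among genes of death and survival signalling PHLDA3 and TNFRSF10B were lower in both lines. PHLDA3, an inhibitor of AKT, had 13.7, 14.1 and 14.7 rescaled RPKM in shCXCR7 libraries, against 22.3, 24.1 and 20.5 in LKO libraries of LNCaP-EnzR cells. It had 12.5, 10.98 and 12.5 rescaled RPKM in shCXCR7 libraries, against 20.6, 16.3 and 15.8 in LKO libraries of C4-2B-EnzR cells. Every knockdown library was below every control. By limma the log2 fold change was -0.64 ± 0.08 (SE, adjusted p = 3.62e-04) in the LNCaP-EnzR line and -0.53 ± 0.12 (SE, adjusted p = 0.0123) in the C4-2B-EnzR line, and the C4-2B-EnzR fall did not pass without shCXCR7 replicate 2 (-0.47). TNFRSF10B, the TRAIL receptor DR5, averaged 25.8 ± 2.06 rescaled RPKM in shCXCR7 and 33.2 ± 2.45 in LKO libraries of LNCaP-EnzR cells, and 41.03 ± 3.61 rescaled RPKM in shCXCR7 and 61.3 ± 8.1 in LKO libraries of C4-2B-EnzR cells (SD, n = 3 each). On the log2 scale the change was -0.36 ± 0.09 (SE, adjusted p = 0.0114) in the LNCaP-EnzR line and -0.57 ± 0.11 (SE, adjusted p = 0.00868) in the C4-2B-EnzR line by limma. Exons of TNFRSF10B overlap exons of RHOBTB2 on the other strand. By limma RHOBTB2 changed by -0.06 (adjusted p = 0.803) in LNCaP-EnzR and -0.36 (adjusted p = 0.0084) in C4-2B-EnzR cells on the log2 scale. The part of RHOBTB2 reads in the TNFRSF10B values was not tested.

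FAS, another death receptor, had 5.56, 5.52 and 5.01 rescaled RPKM in shCXCR7 libraries, against 4.98, 3.67 and 2.83 in LKO libraries of LNCaP-EnzR cells. It had 8.84, 8.24 and 11.6 rescaled RPKM in shCXCR7 libraries, against 5.74, 5.73 and 5.29 in LKO libraries of C4-2B-EnzR cells. Every knockdown library was above every control in both lines. This gave a log2 fold change of 0.49 ± 0.17 (SE, adjusted p = 0.0547) in the LNCaP-EnzR line and 0.73 ± 0.13 (SE, adjusted p = 0.00628) in the C4-2B-EnzR line by limma. FAS shares exonic sequence with ACTA2 on the other strand, and ACTA2 averaged 14.3 ± 2.81 rescaled RPKM in shCXCR7 and 0.849 ± 0.187 in LKO libraries of LNCaP-EnzR cells, and 50.8 ± 14.7 rescaled RPKM in shCXCR7 and 0.701 ± 0.318 in LKO libraries of C4-2B-EnzR cells (SD, n = 3 each). Reads of the 2 genes cannot be told apart where they overlap if counting ignored strand, so the rise of FAS is uncertain. In all, 14 of the 34 members have an exon that overlaps an exon of an antisense gene in GENCODE 44, CDKN1A, SESN1, MDM2, PLK3, KITLG, TNFRSF10B and APAF1 among them. APAF1, the scaffold of the apoptosome, had a log2 fold change of 0.24 in the LNCaP-EnzR line and 0.24 in the C4-2B-EnzR line, and FBXW7, a ubiquitin ligase subunit that targets cyclin E and MYC, -0.05 and 0.20, none of which passed.

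The response to knockdown was then compared between the lines. Of the 33 members, 3 (9.09%) had a higher fold change in C4-2B-EnzR than in LNCaP-EnzR cells at an adjusted p under 0.05, against 5.77% of all genes, and 1 (3.03%) a lower one, against 5.96%. For TP53INP1 the difference was 0.95 ± 0.17 (SE, adjusted p = 0.00411) on the log2 scale and for SESN1 0.93 ± 0.15 (SE, adjusted p = 0.00262) by limma, both from a smaller fall in C4-2B-EnzR cells. For PLK3 it was -0.68 ± 0.17 (SE, adjusted p = 0.0201), from a larger fall in C4-2B-EnzR cells, and it did not pass without LNCaP-EnzR LKO replicate 3 (-0.63) or without C4-2B-EnzR shCXCR7 replicate 2 (-0.66). For CCNG1 it was 0.58 ± 0.17 (SE, adjusted p = 0.0392), and this did not pass with no filter on low values (0.58), without LNCaP-EnzR LKO replicate 1 (0.62), without LNCaP-EnzR LKO replicate 2 (0.56), without LNCaP-EnzR LKO replicate 3 (0.58), without LNCaP-EnzR shCXCR7 replicate 2 (0.62), without C4-2B-EnzR LKO replicate 1 (0.50), without C4-2B-EnzR LKO replicate 2 (0.60), without C4-2B-EnzR shCXCR7 replicate 1 (0.55), without C4-2B-EnzR shCXCR7 replicate 2 (0.58) or without C4-2B-EnzR shCXCR7 replicate 3 (0.62). None of the 4 passed on the values as deposited (adjusted p from 0.502 to 0.753). ACKR3 itself fell further in C4-2B-EnzR cells, with a difference of -0.72 ± 0.15 (SE, adjusted p = 0.00908). Line, enzalutamide dose, culture history and the share of CXCR7 left cannot be told apart in this comparison.

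Most of the members also differed between the control cells of the lines. Between LKO C4-2B-EnzR and LKO LNCaP-EnzR libraries, scaled together, 18 members (54.5%) were lower and 9 (27.3%) higher in C4-2B-EnzR cells, against 30.6% and 31.7% of all genes, and the median log2 difference was -0.38 over the members and 0.00 over all genes. Among the checkpoint genes 5 of 6 were lower, and the exception was PLK3. PLK2 averaged 1.58 ± 0.361 in C4-2B-EnzR and 15.7 ± 0.495 in LNCaP-EnzR cells (a log2 difference of -3.14 ± 0.15 (SE, adjusted p = 8.08e-06) by limma). BTG2 averaged 24.5 ± 3.76 in C4-2B-EnzR and 77.1 ± 4.15 in LNCaP-EnzR cells, a difference of -1.65. CCNG1 averaged 50.5 ± 4.95 in C4-2B-EnzR and 156 ± 6.22 in LNCaP-EnzR cells, a difference of -1.63. Every one of these values is RPKM scaled over the 6 LKO libraries (SD, n = 3 each).

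CDKN1A averaged 124 ± 21.3 in C4-2B-EnzR and 333 ± 44.9 in LNCaP-EnzR cells, a log2 difference of -1.43 ± 0.15 (SE, adjusted p = 1.94e-04). GDF15 averaged 111 ± 40.4 in C4-2B-EnzR and 532 ± 100.1 in LNCaP-EnzR cells, a difference of -2.31 ± 0.28 (SE, adjusted p = 3.93e-04), and SESN1 13.9 ± 1.39 in C4-2B-EnzR and 60.7 ± 1.87 in LNCaP-EnzR cells, a difference of -2.11 ± 0.08 (SE, adjusted p = 3.51e-06). TP53INP1 averaged 52.1 ± 7.06 in C4-2B-EnzR and 123 ± 7.13 in LNCaP-EnzR cells, a difference of -1.24 ± 0.11 (SE, adjusted p = 8.42e-05), all by limma. These 4 genes were thus lower in C4-2B-EnzR control cells, while PLK3 and ACER2 were higher there. PLK3 averaged 16.4 ± 1.32 in C4-2B-EnzR and 6.85 ± 0.643 in LNCaP-EnzR cells, a difference of 1.23, and ACER2 7.17 ± 1.21 in C4-2B-EnzR and 3.396 ± 0.472 in LNCaP-EnzR cells, a difference of 1.02. KITLG averaged 1.57 ± 0.121 in C4-2B-EnzR and 0.307 ± 0.0883 in LNCaP-EnzR cells, a difference of 1.72, APAF1 2.78 ± 0.275 in C4-2B-EnzR and 0.963 ± 0.167 in LNCaP-EnzR cells, a difference of 1.33, and TP53I3 12.9 ± 1.65 in C4-2B-EnzR and 6.61 ± 0.722 in LNCaP-EnzR cells, a difference of 0.94. MDM2, PPM1D, SESN2, XPC, FAS and FBXO22 did not pass, with log2 differences of -0.12 to 0.28. RPS27L (-0.20) did not pass without LNCaP-EnzR LKO replicate 2 (-0.19) or without LNCaP-EnzR LKO replicate 3 (-0.18), nor on the values as deposited (-0.09). The LKO libraries serve this comparison and those of knockdown, and line, drug dose and culture history cannot be told apart.

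**Figure D5:**
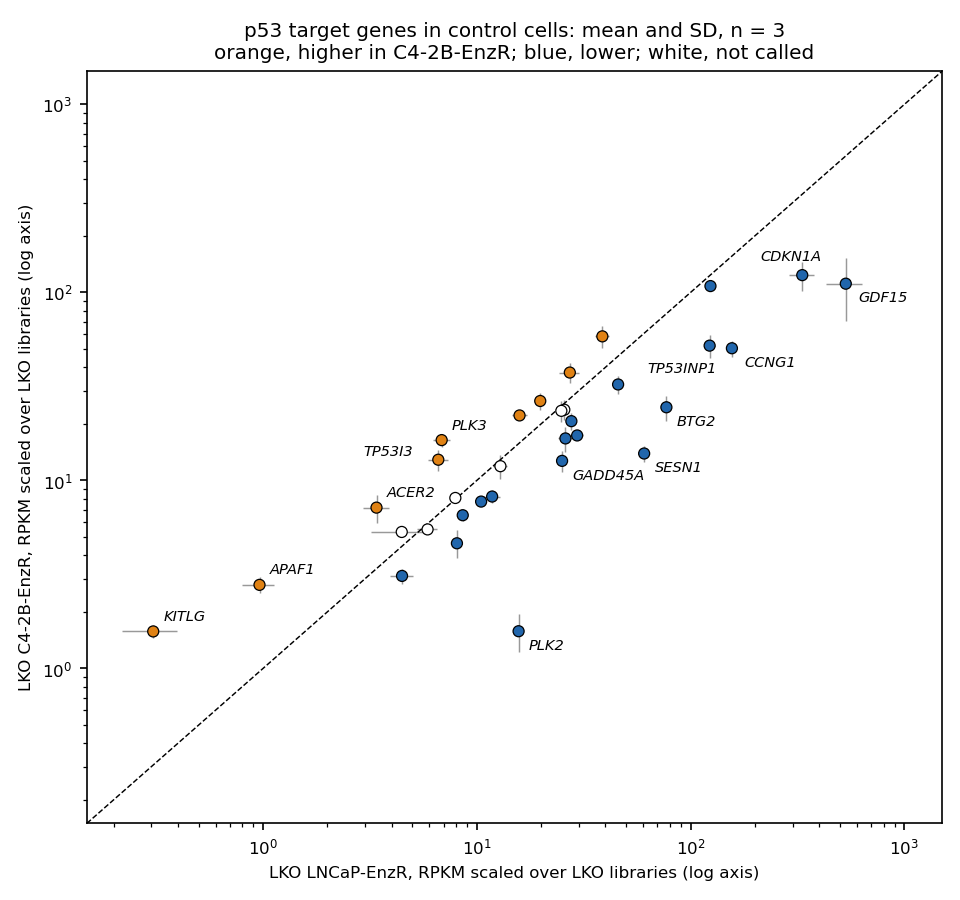
Mean level with SD of each p53 target gene in LKO C4-2B-EnzR (y axis) and LKO LNCaP-EnzR libraries (x axis), in RPKM scaled over the 6 LKO libraries on log axes, with the dashed line at equal levels. The 18 blue genes below the line are lower in C4-2B-EnzR cells, PLK2 farthest, and the 9 orange genes above it are higher.

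Ranked by level within a group, the members kept a common top. In LNCaP-EnzR LKO cells the order began with GDF15 (457 rescaled RPKM), CDKN1A (286), CCNG1 (134), RPS27L (106) and TP53INP1 (105), and the standard deviations of RPS27L (2.53) and TP53INP1 (6.03) exceed the gap between those neighbours. In LNCaP-EnzR shCXCR7 cells CDKN1A came first (135), then CCNG1 (119) and GDF15 (107), within their spread, and TP53INP1 had dropped to position 17. In C4-2B-EnzR LKO cells CDKN1A (129.7), GDF15 (117) and RPS27L (114) led, also within their spread, and in C4-2B-EnzR shCXCR7 cells RPS27L (131), CDKN1A (81.5) and CCNG1 (69.7) did. TP53INP1 stood at position 17 there too, against 5 in LKO cells. KITLG, APAF1 and ACER2 were among the 4 lowest tested members in every group but C4-2B-EnzR LKO.

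Regulators of p53 were examined beside its targets. MDM4, which masks the p53 activation domain, and CDKN2A, whose products include the MDM2 inhibitor ARF, passed in neither line. Their log2 fold changes were -0.05 and 0.23 in LNCaP-EnzR and -0.21 and 0.25 in C4-2B-EnzR cells. The CDKN2A value is for the whole gene and not for ARF alone. It came from 33 to 63 reads per library in C4-2B-EnzR cells. Of 20 regulators tested, 3 were higher and 2 lower in LNCaP-EnzR cells, and 1 was higher and 6 lower in C4-2B-EnzR cells (16.8% of all genes were higher and 19.1% lower in LNCaP-EnzR cells, and 19.4% and 19.5% in C4-2B-EnzR cells). HIPK2, a kinase that phosphorylates p53 toward apoptosis, was the 1 regulator higher in both, at 0.97 in the LNCaP-EnzR line and 0.66 in the C4-2B-EnzR line. ATR, a kinase that senses replication stress, was the 1 regulator lower in both, at -0.28 ± 0.09 (SE, adjusted p = 0.0422) in the LNCaP-EnzR line and -0.46 ± 0.08 (SE, adjusted p = 0.00565) in the C4-2B-EnzR line by limma.

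Among 27 further p53 targets tested outside the list, 12 were lower and 7 higher in LNCaP-EnzR cells (median log2 fold change -0.24), and 14 were lower and 5 higher in C4-2B-EnzR cells (median -0.33). Of all genes 19.1% were lower and 16.8% higher in LNCaP-EnzR cells, and 19.5% and 19.4% in C4-2B-EnzR cells. This list too was chosen with earlier results of these data known. BAX, the pore-forming effector of mitochondrial apoptosis, averaged 14.3 ± 1.33 rescaled RPKM in shCXCR7 and 34.6 ± 0.4097 in LKO libraries of LNCaP-EnzR cells, and 14.7 ± 0.887 rescaled RPKM in shCXCR7 and 30.2 ± 2.94 in LKO libraries of C4-2B-EnzR cells (SD, n = 3 each). It fell by 1.27 on the log2 scale in LNCaP-EnzR cells (adjusted p = 1.43e-05 by limma) and by 1.02 in C4-2B-EnzR cells (adjusted p = 4.55e-04). Of 2 BH3-only genes, PMAIP1 was higher in both lines and BBC3 was lower in C4-2B-EnzR cells. PMAIP1, which encodes NOXA, rose by 0.89 ± 0.15 (SE, adjusted p = 0.00216) in the LNCaP-EnzR line and 0.63 ± 0.13 (SE, adjusted p = 0.0107) in the C4-2B-EnzR line on the log2 scale by limma. BBC3, which encodes PUMA, had a log2 fold change of 0.13 ± 0.11 (SE, adjusted p = 0.399) in the LNCaP-EnzR line and -0.54 ± 0.14 (SE, adjusted p = 0.0245) in the C4-2B-EnzR line by limma.

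Genes that p21 is known to repress through the DREAM and RB complexes are proliferation genes that rise when p21 is lost. Of 18 such genes, 4 were lower and 1 higher in LNCaP-EnzR cells (median log2 fold change -0.05), and 17 were lower and 0 higher in C4-2B-EnzR cells (median -1.13), where CDKN1A was lower too. The shares of all genes were 19.1% lower and 16.8% higher in LNCaP-EnzR cells, and 19.5% and 19.4% in C4-2B-EnzR cells. CDC20, an activator of the anaphase-promoting complex, averaged 16.8 ± 1.97 rescaled RPKM in shCXCR7 and 53.6 ± 11.2 in LKO libraries of C4-2B-EnzR cells (SD, n = 3 each), with a log2 fold change of -1.65 ± 0.16 (SE, adjusted p = 7.52e-04) by limma. Over C4-2B-EnzR LKO replicates 1, 2 and 3 CDC20 had 42.8, 52.8 and 65.2 rescaled RPKM. CDKN1A had 151, 131 and 107 there. BIRC5, which encodes survivin, had a log2 fold change of -0.65 ± 0.08 (SE, adjusted p = 4.52e-04) in the LNCaP-EnzR line and -2.06 ± 0.21 (SE, adjusted p = 8.20e-04) in the C4-2B-EnzR line by limma. The fold changes of the lines differed at an adjusted p under 0.05 for 13 of the 18 genes, all lower in C4-2B-EnzR cells (5.96% of all genes). In control cells all 18 were higher in C4-2B-EnzR than in LNCaP-EnzR libraries (median log2 difference 1.28, with 31.7% of all genes higher). CDKN1A was lower there. The part of CDKN1A in these levels was not tested, and line, drug dose and culture history cannot be told apart.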

How the data were processed

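The 12 RNA-seq libraries (NEBNext Ultra, single-end, Illumina) were 3 for each of 4 groups. The authors aligned reads with STAR to hg38, and deposited RPKM values per gene for every library in a single table; gene reads were counted by STAR, with an annotation and strand setting not given in the sources used here. Of 26475 gene lines, 32 without a value and 2 repeated symbols were dropped. Whole reads were recovered for 25029 of 25030 genes with a value above 0 (within 0.02 reads) and used for depth and for limma-voom as an alternative, which called 2569 genes higher and 2775 lower in LNCaP-EnzR cells and 3051 and 3094 in C4-2B-EnzR cells.

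RPKM was rescaled by median-of-ratios factors within each line, and log2(rescaled RPKM + 0.25) was fitted with limma 3.58.1 (R 4.3.3, eBayes with trend) for genes of at least 0.5 RPKM in 3 of 12 libraries, each line alone, the difference of the lines over all 12 and LKO cells over 6. P-values were adjusted by Benjamini-Hochberg over 14204 genes, and an adjusted p under 0.05 counted as a call. A fold change on this scale understates the change of low genes. The method was tested on simulated data with known fold changes. These data did not copy what sets LNCaP-EnzR shCXCR7 replicate 3 apart, beyond its scale.

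All members are named; per-library values are given for the 12 with the largest fold change in either line, MDM2 and PPM1D, and means or fold changes from other lists for MDM4, CDKN2A, BAX, BBC3, PMAIP1 and called genes a sentence needed. Some genes of the lists are not reported here. NDUFAF6, ACTA2 and RHOBTB2 were named after their values were seen. Members and lists were chosen with earlier results of these data known. Elements were searched in hg38 with GENCODE 44 starts (Python 3.11.15, numba 0.67.0). Alternatives covered scaling, pseudocount, filter, model, replicate block and each library left out.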

Additional observations from a re-analysis of the deposited data

Results flagged for a closer look

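The response to CXCR7 knockdown differed between the lines for 4 members, by the test of the difference itself (C4-2B-EnzR minus LNCaP-EnzR log2 fold change, limma over 12 libraries). That is 3 members higher (9.09%, against 5.77% of all genes) and 1 lower (3.03%, against 5.96%). For TP53INP1 the difference was 0.95, with log2 fold changes of -1.98 in C4-2B-EnzR and -2.93 in LNCaP-EnzR cells. For SESN1 it was 0.93, with -0.71 in C4-2B-EnzR and -1.64 in LNCaP-EnzR cells. For CCNG1 it was 0.58, with 0.40 in C4-2B-EnzR and -0.19 in LNCaP-EnzR cells. For PLK3 it was -0.68, with -1.35 in C4-2B-EnzR and -0.67 in LNCaP-EnzR cells. All 6 knockdown libraries of both lines were below their controls for TP53INP1, SESN1 and PLK3, and none of the 4 differences passed on the values as deposited.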

How the results depend on the processing

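Calls of 4 of 17 members held in every alternative in LNCaP-EnzR cells (TP53INP1, GDF15, SESN1 and ACER2), 11 of 18 in C4-2B-EnzR cells, 0 of 4 for the difference between the lines and 26 of 27 between control cells. On the values as deposited, LNCaP-EnzR cells gave 0 members higher and 4 lower (median -0.52), 275 and 364 of all genes, ACKR3 at -1.58 (adjusted p = 0.115), and turned the sign of POLH (-0.0892); the difference between the lines gave 0 and 0 members (median 0.49) and 20 and 33 of all genes, and the median between control cells was -0.28. The cause was not tested. Members higher in LNCaP-EnzR cells numbered 5 with quantile normalization, 5 with factors from genes of at least 5 RPKM and 0 with no filter on low values (1925 of 24952 genes were). With no filter, 533 genes had a higher fold change in C4-2B-EnzR than in LNCaP-EnzR cells. Leaving out 1 library at a time, members higher ranged from 0 to 4 in LNCaP-EnzR and from 2 to 8 in C4-2B-EnzR cells, where 1798 to 2721 genes were higher in all. For the difference between the lines, members ranged from 2 to 5 higher and 0 to 1 lower, and all genes from 449 to 870 higher and 528 to 941 lower. Element matches were 2 members with 0 mismatches and 2 within 1000 bases.

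Replicate numbers did not pair the libraries: correlations of deviations between same-numbered shCXCR7 and LKO libraries were -0.02, 0.03 and -0.06 in LNCaP-EnzR and 0.02, 0.04 and -0.10 in C4-2B-EnzR cells. With the replicate block, 2240 genes were higher and 2624 lower in LNCaP-EnzR cells, 1998 and 2156 in C4-2B-EnzR cells, and 479 and 544 differed between the lines. Members higher and lower numbered 2 and 14, 4 and 11, and 2 and 1, with FAS and without POLH and KITLG in LNCaP-EnzR cells, and without RPS27L, RRM2B and BLOC1S2 in C4-2B-EnzR cells and CCNG1 in the difference.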
